A study of Mus musculus with 7 samples.

Results

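Histone genes were followed in the outflow tract (OFT), the vessel through which the embryonic heart empties, at embryonic day (E) 11.5. The set held every listed gene whose symbol is that of a core or linker histone gene, either under the current names (H1f, H2ac, H2bc, H3c, H4c, H2az, H2ax, H3f3 and Macroh2a) or under the older names that start with Hist. Of 14732 listed genes, 23 met this definition. They comprised 14 replication-dependent genes, 8 polyadenylated variant genes and *H2ax*, which was kept apart because it is known to make both kinds of mRNA. RNA came from 3 control (WT) pools (replicates 3, 4 and 5) and 4 Gata6STOP/+ pools (replicates 1, 3, 4 and 5), each from several embryos of the same genotype. The Gata6STOP/+ embryos carry a premature stop in 1 germline copy of *Gata6* made with CRISPR-Cas9, in all cells and not in 1 cell type. No treatment was given, and the strain is not stated in the labels. The comparison asks how the loss of 1 *Gata6* copy changes gene expression in the OFT.

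Histones package DNA. The core histones H2A, H2B, H3 and H4 form the nucleosome, and the linker histone H1 binds where DNA enters and leaves it. Replication-dependent genes supply the bulk of histone protein during S phase, lie in clusters, mostly lack introns, and make mRNAs that end in a conserved stem-loop instead of a poly(A) tail. The stem-loop-binding protein SLBP recognises this end. Variant genes lie outside the clusters, are transcribed throughout the cell cycle and in cells that have stopped dividing, and make ordinary polyadenylated mRNAs. Because poly(A)+ RNA was selected with oligo-dT beads, a replication-dependent gene was read here from whatever part of its mRNA carried a tail, and its level is not a measure of its total mRNA.

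The replication-dependent members lay mainly in 1 cluster, with 12 of the 14 on mouse chromosome 13 and 2 (*H2bc21* and *H2ac18*) on chromosome 3. In the GENCODE M21 annotation of GRCm38, the assembly the authors used, 11 of the 14 were annotated with a single exon, compared with 2 of the 8 variant members (*H1f0* and *H1f10*). The variant members were spread over 7 chromosomes. The annotation names 70 genes with the older Hist symbols, of which 16 were in the deposited table.

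The 3′ ends of the annotated transcripts were compared between the classes. The 16-base stem-loop, a 6-base stem around a 4-base loop, was searched in the annotated transcripts in its consensus form or with any fully paired stem of the same outline. It was found in 6 of the 14 replication-dependent genes, in *H2ax* and in 0 of the 8 variant genes. Across the annotation, 43 of 55450 genes (0.0775%) held the consensus form, and 38 of those carried a Hist name. The 7 stem-loops are printed with the stem-loop in capitals and up to 5 bases on either side, because this end is what replication-dependent histone mRNAs are known for.
Hist1h2ap: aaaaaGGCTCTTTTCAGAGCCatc
H2ac18: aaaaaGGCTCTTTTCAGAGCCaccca
H2bc8: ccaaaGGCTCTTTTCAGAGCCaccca
H1f2: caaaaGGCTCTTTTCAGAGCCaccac
H4c9: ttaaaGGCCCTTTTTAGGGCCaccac
H3c3: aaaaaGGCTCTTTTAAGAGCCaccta
H2ax: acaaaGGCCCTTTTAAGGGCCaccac
An H2A, an H2B and an H1 gene thus shared the same 16 letters. In *Hist1h2ap* the annotated transcript ran 3 bases past the stem-loop, whereas it ran 840 bases past it in *H1f2*, 330 in *H4c9* and 822 in *H2ax*.

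A poly(A) signal, AATAAA or ATTAAA, stood within the last 60 bases of a transcript in all 8 variant genes, in *H2ax* and in 5 of the 14 replication-dependent genes (*H1f2*, *H2bc21*, *H4c9*, *Hist1h2bq* and *Hist1h2br*). For *Macroh2a1* it stood in 1 of 8 transcripts, which has no annotated stop codon. Both features stood in *H1f2*, *H4c9* and *H2ax*. The signals of these 3, of *H2bc21* and of 2 variants are printed in capitals, since they mark the tail by which such RNA can be captured.
H1f2: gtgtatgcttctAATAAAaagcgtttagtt
H4c9: ggttctgtttacATTAAAagtattctatgc
H2ax: tgggctaattttATTAAAggatcgtttggt
H2bc21: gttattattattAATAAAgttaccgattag
H3f3a: aatttgaaaaatAATAAAagtaccaataga
H1f0: ttaaaactttaaAATAAAactggaaaggaa
In 4 replication-dependent genes (*H2ac12*, *H2ac13*, *H3c10* and *H4c12*) the annotated transcript stopped within 2 bases of the stop codon, so that neither feature could be looked for. *H2bc4* had neither feature, although its transcript runs 742 bases past the stop codon, and *H2bc21*, *Hist1h2bq* and *Hist1h2br*, with 1608 to 2192 bases there, held no stem-loop. The longest transcripts of *H2bc4*, *Hist1h2bq* and *Hist1h2br* are spliced, with 2, 3 and 3 exons. The single-exon transcripts of *Hist1h2bq* and *Hist1h2br* end at the stop codon. Genomic sequence beyond the annotated exons was not searched, so a stem-loop there would have been missed.

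Control libraries held between 17783655 and 29035529 reads assigned to listed genes, and Gata6STOP/+ libraries between 24736761 and 34467710. Levels are given in CPM, that is, TMM-normalised counts scaled to a common library size. *Gata6* levels of 315, 257 and 286 CPM (control replicates 3, 4 and 5) compared with 268, 203, 219 and 217 CPM (Gata6STOP/+ replicates 1, 3, 4 and 5). Its log2(fold change) of −0.34 had an adjusted *P*-value of 0.389 in limma, and the groups overlapped through Gata6STOP/+ replicate 1 alone. Cardiomyocyte, smooth muscle and endothelial markers, each list listed in full, were present in every pool. The sum of erythroid markers ranged from 2290.1 to 5529 CPM in control and from 2668 to 6951 CPM in Gata6STOP/+ pools, and summed mitochondrially encoded genes from 23867 to 29519 and from 26881 to 30208 CPM. The sums of mesenchyme markers (866 to 1147 against 652 to 963 CPM, 4 of 4 lower in Gata6STOP/+ OFT) and of neural crest and glia markers (78.3 to 114 against 67.5 to 78.6 CPM, 2 of 3 lower) lay lower on average in Gata6STOP/+ pools. Higher means in Gata6STOP/+ OFT were held by 8 of 8 erythroid, 4 of 4 smooth muscle and 13 of 15 mitochondrially encoded genes. The same held for 4 of 5 endothelial and 2 of 2 pharyngeal epithelium markers. Cardiomyocyte (4 of 5) and macrophage (3 of 4) markers were mostly lower. Sums overlapped between the genotypes for all 9 marker lists, no marker passed the adjusted threshold, and their part in the histone values was not tested. In such bulk tissue, fewer cells of a type and less RNA per cell cannot be told apart.

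No histone gene passed the adjusted threshold between the genotypes. With limma on log2(CPM+0.5), 0 of the 23 members had an adjusted *P*-value under 0.05, compared with 0% of all genes tested. At an unadjusted *P*-value under 0.05 there was 1 member, *H3c10*, compared with 8.06% of all genes. The edgeR quasi-likelihood test, the edgeR likelihood ratio test and DESeq2 on the recovered reads also called 0 members. Of all 14732 listed genes, these tests called 0, 105 and 88 in the same order. With so few genes called, 0 of the 23 members does not set the histone genes apart from the rest. Of the 14 replication-dependent genes, 6 had a higher and 8 a lower mean in Gata6STOP/+ OFT, with a median log2(fold change) of −0.02. Of the 8 variant genes, 1 was higher and 7 were lower, with a median of −0.04. The median over all listed genes was 0.00 (−0.00073). Leaving out 1 pool moved the first of these medians between −0.06 and 0.07 and the second between −0.09 and −0.01.

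Summed over each class, the genotypes overlapped. The replication-dependent genes together had 194, 155 and 175 CPM in control replicates 3, 4 and 5 and 163, 181, 179 and 185 CPM in Gata6STOP/+ replicates 1, 3, 4 and 5. The lowest and the highest sum were both those of control pools. The mean was 175±19.5 CPM (s.d., *n*=3) in control and 177±9.51 CPM (*n*=4) in Gata6STOP/+ OFT, a ratio of 1.02. The variant genes together had 2198, 2081 and 2327 CPM in control and 2293, 2138, 2115 and 2157 CPM in Gata6STOP/+ pools, with means of 2202±123 and 2176±80.0 CPM and a ratio of 0.988. Again the control pools spanned the whole range.

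The replication-dependent sum was 8.81%, 7.44% and 7.53% of the variant sum in the control pools and 7.13%, 8.49%, 8.47% and 8.57% in the Gata6STOP/+ pools. *Gata6* genotype did not separate these percentages, and the lowest was that of Gata6STOP/+ replicate 1. Control replicate 4 had the lowest level of any pool for 3 of the 14 replication-dependent and 3 of the 8 variant genes, ties left out, and the highest for 0 of either. Gata6STOP/+ replicate 1 was also lowest for 3 of the 14, but it was highest for 5 of them, more than any other pool. Gata6STOP/+ replicate 4 was also highest for 0 of either.

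**Figure D1:**
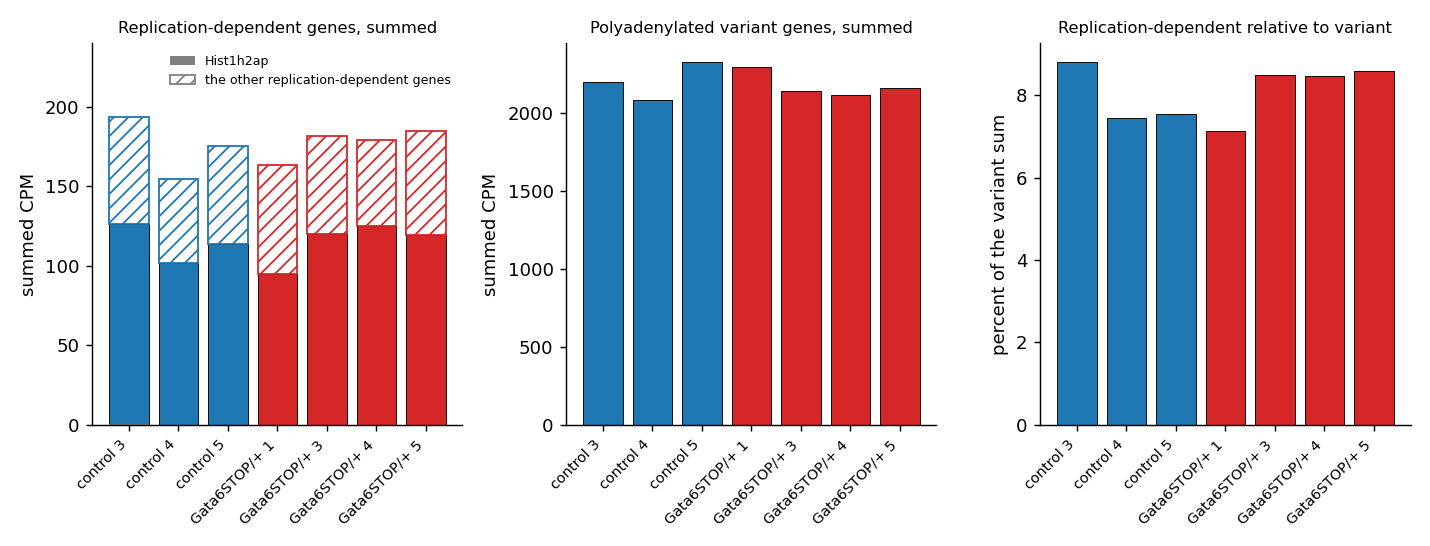
Summed CPM of the 14 replication-dependent genes (left, with *Hist1h2ap* filled and the other genes hatched), summed CPM of the 8 variant genes (middle) and the first as a percentage of the second (right), 1 bar per pool, control in blue and Gata6STOP/+ in red. The replication-dependent bars lie between 155 and 194 CPM and the variant bars between 2081 and 2327 CPM, and the genotypes overlap in all 3 panels.

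Libraries made from tailed RNA can differ in how much untailed RNA they carry over. Of 19 RNAs listed as lacking a poly(A) tail, 4 were in the table, and they summed to 26.2, 17.3 and 27.6 CPM in the control pools and to 18.4, 14.8, 21.5 and 9.65 CPM in the Gata6STOP/+ pools. *Rn7s1*, an RNA of the signal recognition particle, and *Rn7s2* had identical values in every pool, with a log2(fold change) of −0.66 (s.e. 0.27, adjusted *P*-value of 0.567 in limma). Control replicate 4, lowest in the replication-dependent sum, was also the lowest control pool for these RNAs, but Gata6STOP/+ replicate 5, lowest of all pools for them, had the second highest replication-dependent sum. Their part in the histone values was not tested.

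Among the replication-dependent genes, the CPM assigned to the H2A gene *Hist1h2ap* (chr13:21833026-21833507, minus strand) made up 58.1% to 69.7% of the class sum. Only 7.09% of its 60-base stretches were found in no other annotated gene. *Hist1h2ao*, which is not a listed gene, shared 92.9% of them. Whether reads of other H2A genes contributed to the level assigned here was not tested. *Hist1h2ap* stood at 126, 102 and 114 CPM in the control pools and at 94.96, 119.9, 125 and 119 CPM in the Gata6STOP/+ pools. The lowest value was that of Gata6STOP/+ replicate 1 and the highest that of control replicate 3. The log2(fold change) was 0.01 with a 95% interval from −0.21 to 0.23. Per kilobase of exon it had 237 CPM, close to the 262 CPM per kilobase of the variant *H2az1* and far above the other replication-dependent genes, which had between 0.867 (*Hist1h2bq*) and 15.9 CPM per kilobase (*H1f2*). Without *Hist1h2ap*, the ratio of the class sums was 1.03, a calculation chosen after the values were seen.

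*Hist1h2ap* is read back to back with the H2B gene *Hist1h2br* (chr13:21833743-21837530, plus strand), and 235 bases separate the annotated starts. *Hist1h2br* had 2.30, 1.10 and 2.30 CPM in control and 2.63, 2.25, 1.91 and 1.74 CPM in Gata6STOP/+ pools, and the groups overlapped. Per kilobase of exon that is 0.919 CPM over all pools, far below the 237 CPM per kilobase assigned to its neighbour.

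The promoters of the member with the highest mean CPM in each class are given, read 5′ to 3′ toward the gene, because they show an element found in both classes. They span 250 bases before to 50 after the RefSeq start. Capitals mark the CCAAT box CCAAT, the TATA box TATAAA and the octamer ATTTGCAT on either strand. Both promoters hold CCAAT boxes. Only that of *H3f3b* holds a TATA box and an octamer, and no other variant promoter holds either. That of *Hist1h2ap* lies at chr13:21833426-21833725 (GRCm38, minus strand), where RefSeq names the gene H2ac24, and 233 of its 300 bases also belong to the *Hist1h2br* window. That of *H3f3b* lies at chr11:116024455-116024754 (minus strand).
Hist1h2ap: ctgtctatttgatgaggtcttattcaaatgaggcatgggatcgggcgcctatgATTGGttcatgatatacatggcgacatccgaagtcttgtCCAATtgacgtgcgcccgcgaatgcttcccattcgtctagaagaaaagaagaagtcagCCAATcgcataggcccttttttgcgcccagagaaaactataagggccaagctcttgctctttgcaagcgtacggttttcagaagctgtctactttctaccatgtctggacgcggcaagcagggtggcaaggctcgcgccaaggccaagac
H3f3b: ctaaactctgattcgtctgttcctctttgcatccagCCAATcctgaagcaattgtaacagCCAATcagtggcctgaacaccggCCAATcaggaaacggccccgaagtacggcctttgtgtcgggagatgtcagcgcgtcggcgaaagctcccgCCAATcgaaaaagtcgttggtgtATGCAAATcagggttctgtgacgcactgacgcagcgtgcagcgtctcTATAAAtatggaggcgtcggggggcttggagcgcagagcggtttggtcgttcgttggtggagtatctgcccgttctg
RefSeq promoters were matched for 20 of the 23 members, 17 by symbol and 3 by position. The CCAAT box stood in 10 of the 12 replication-dependent and 5 of the 8 variant promoters, and in 37.4% of all 32851 promoters. The TATA box stood in 6 of 12, 1 of 8 and 13.6%, and the octamer in 2 of 12 (*H2bc8* and *H2ac12*), 1 of 8 (*H3f3b*) and 1.74%. A GATA motif, the letters GATA with A or T before and A or G after them, stood in 4 of 12, 0 of 8 and 29.8%. An E2F site (TTTCGCGC or TTTGGCGC) stood in that of *H2ac12* alone among the members, and in 0.813% of all promoters. These are matches of letters and say nothing of binding.

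*H1f2* (chr13:23738808-23740367), the replication-dependent linker histone, ranked next in CPM. It had 27.4, 19.6 and 22.1 CPM in control and 30.2, 23.3, 22.4 and 28.4 CPM in Gata6STOP/+ pools. The mean was higher in Gata6STOP/+ OFT, but the groups overlapped, and the log2(fold change) of 0.18 (s.e. 0.13) had an adjusted *P*-value of 0.783 in limma.

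Of the H2B genes, *H2bc4* (chr13:23684199-23692908) had 9.01, 9.07 and 10.53 CPM in control and 11.05, 11.05, 8.83 and 10.1 CPM in Gata6STOP/+ pools. *H2bc21* (chr3:96221119-96223738), which has a poly(A) signal and no stem-loop, had 6.90, 6.38 and 6.44 CPM in control and 6.45, 6.67, 6.35 and 6.13 CPM in Gata6STOP/+ pools. It was the steadiest of all 23 members, with a coefficient of variation of 3.80% over the 7 pools, below the 7.85% that counting alone gives at its mean level. *H2bc8* and *Hist1h2bq* stayed between 1.04 and 2.14 CPM in all pools. The 5 H2B genes summed to 22.1, 19.3 and 23.2 CPM in control and 24.0, 22.8, 20.8 and 20.7 CPM in Gata6STOP/+ pools.

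The H4 gene *H4c9* (chr13:22040636-22041362) had 4.65, 4.24 and 5.32 CPM in control and 5.33, 4.13, 4.56 and 6.43 CPM in Gata6STOP/+ pools. The other H4 gene, *H4c12* (chr13:21750194-21750505), had 2.06, 2.001 and 0.560 CPM in control and 0.491, 2.43, 2.12 and 1.57 CPM in Gata6STOP/+ pools. Thus 1 pool of each genotype, control replicate 5 and Gata6STOP/+ replicate 1, held 10 and 14 reads of *H4c12*, and the other pools 43 to 67. Both genes together summed to between 5.82 and 7.996 CPM.

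*H2ac18* (chr3:96245497-96246082), an H2A gene of the smaller cluster, had 2.88, 2.38 and 1.79 CPM in control and 3.47, 2.14, 1.91 and 1.86 CPM in Gata6STOP/+ pools. Its whole length lies opposite another listed gene, and 529 of its bases lie on the same strand as a further one, *Gm20634*, which holds 89.2% of its 60-base stretches. Its level is therefore uncertain.

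**Figure D2:**
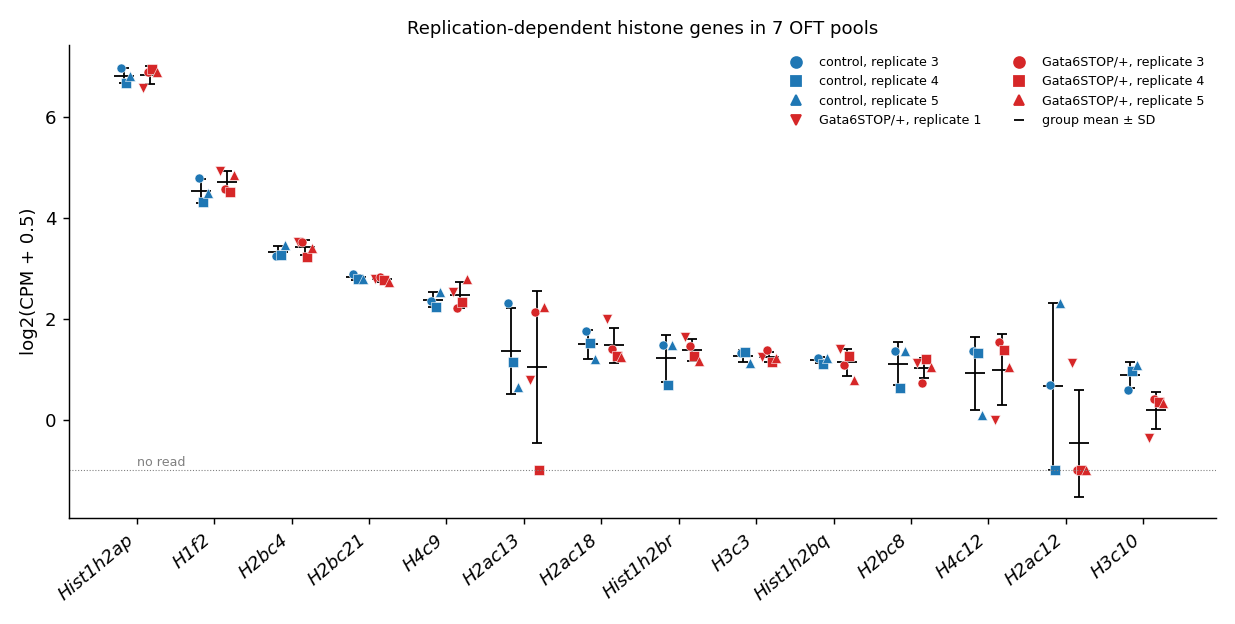
log2(CPM+0.5) of the 14 replication-dependent genes, ordered by mean CPM, with 1 point per pool (blue, control, and red, Gata6STOP/+, with the marker giving the replicate) and black bars for the group mean and s.d. of the plotted values. The dotted line marks pools with no read, which occurred for *H2ac13* and *H2ac12*, and *H3c10* is the gene whose groups do not overlap.

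*H3c10* (chr13:21717659-21718069), an H3 gene, was the member whose groups did not overlap, 1 of 23. Every Gata6STOP/+ pool lay below every control pool for 4.16% of all genes, above for 4.31%, and either for 8.47%. *H3c10* had 1.01, 1.45 and 1.62 CPM in control and 0.281, 0.833, 0.773 and 0.756 CPM in Gata6STOP/+ pools, which are 21, 42 and 29 reads against 8, 23, 19 and 26. The log2(fold change) was −0.70 (s.e. 0.25, 95% interval −1.25 to −0.14), with an adjusted *P*-value of 0.517 in limma. An exact two-sided permutation test over the 35 ways to part the pools gave 0.0571, the smallest *P*-value it can give here. The gene had been noted in earlier results of these data, so the direction is a description.

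The other H3 gene of the class, *H3c3*, stayed between 1.68 and 2.10 CPM, with a log2(fold change) of −0.02. Both together had 3.02, 3.48 and 3.30 CPM in control and 2.14, 2.93, 2.48 and 2.59 CPM in Gata6STOP/+ pools, a ratio of means of 0.776. Only 6.25% of the 60-base stretches of the *H3c10* transcript were found in no other annotated gene, and 46.9% were also found in *H3c3*, where the share found in 1 gene was 57.4%. Genes that are not listed shared more of them, among these *Hist1h3i* (75.9%) and *Hist1h3b* (69.9%). The sum of *H3c10* and *H3c3* therefore does not cover all genes with shared stretches. As the reads were 60 bases long, reads from such stretches cannot be placed by sequence.

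*H2ac12* and *H2ac13*, 2 nearly identical H2A genes, varied most between pools. *H2ac12* (chr13:22035164-22035568) had 23, 0 and 80 reads in control replicates 3, 4 and 5 and 48, 0, 0 and 0 reads in Gata6STOP/+ replicates 1, 3, 4 and 5. In CPM these are 1.10, 0 and 4.48, and 1.68, 0, 0 and 0, so that both genotypes held pools with and without reads. A count of 0 allows up to 3 reads (counting error only), or 0.0872 to 0.122 CPM in the 3 Gata6STOP/+ pools and 0.104 CPM in the control pool concerned. The log2(fold change) of −1.13 had an s.e. of 0.73 and an adjusted *P*-value of 0.741 in limma. It depends on the constant added to the zeros and is not a bound.

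*H2ac13* (chr13:21716422-21716814) had 93, 50 and 19 reads in control and 35, 107, 0 and 144 reads in Gata6STOP/+ pools, or 4.46, 1.73 and 1.06 CPM and 1.23, 3.88, 0 and 4.19 CPM. Its coefficient of variation was 75.3%, against 13% from counting alone, and that of *H2ac12* was 160.1% against 19.6%. For comparison, the 8 variant genes had coefficients of variation of 4.40% to 11.9%. *H2ac12* shared 79.2% of its stretches with *H2ac13* and 69.7% with *Hist1h2ap*, and 9.54% of them were found in 1 gene. Gata6STOP/+ replicate 4 had no read of either gene and 124.9 CPM of *Hist1h2ap*. Whether the placing of shared reads by the quantification moved these values was not tested, and the 4 replication-dependent H2A genes together ranged from 101 to 135 CPM with overlapping groups.

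**Figure D3:**
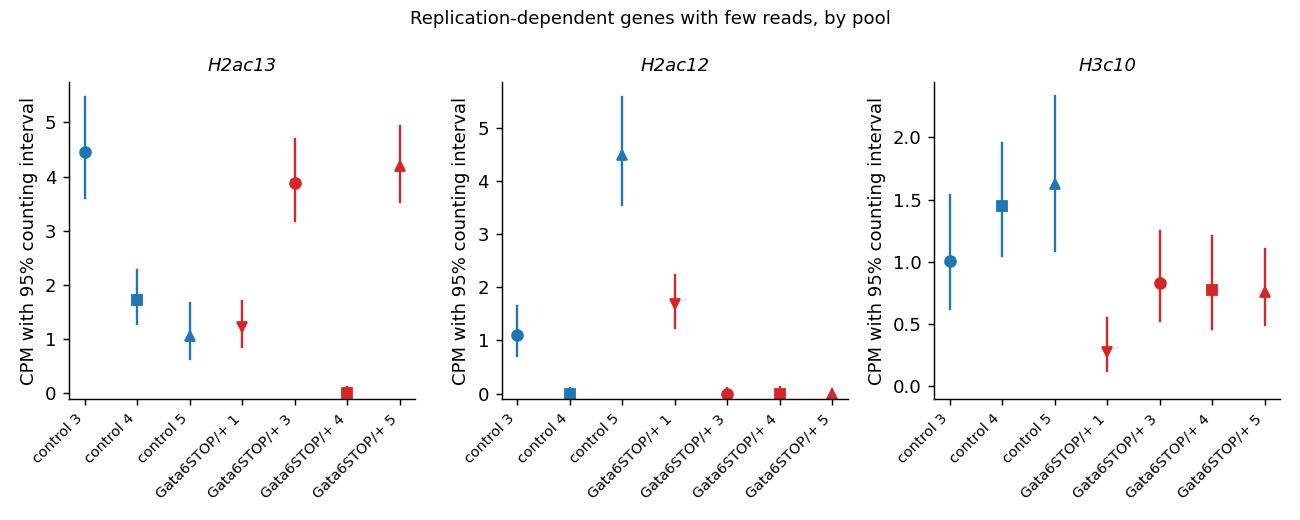
CPM of *H2ac13*, *H2ac12* and *H3c10* in each pool (blue, control; red, Gata6STOP/+) with exact 95% Poisson intervals, drawn up to the 3-read limit where a pool had no read, which cover counting error only. *H2ac13* and *H2ac12* jump between 0 and over 4 CPM within a genotype, whereas *H3c10* lies between 1.01 and 1.62 CPM in the control pools and between 0.281 and 0.833 CPM in the Gata6STOP/+ pools.

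How far the 60-base stretches could tell members apart differed by class. The share found in 1 gene was 3.18% for *Hist1h2bq*, 7.09% for *Hist1h2ap*, 10.2% for *H2ac13*, 10.8% for *H2ac18*, 11.8% for *Hist1h2br* and 30.04% for *H4c12*. It was 92.4% for *H1f2* and 100% for *H2bc21*, and between 84.0% (*H2az1*) and 100% in the variant genes. *Hist1h2bq* and *Hist1h2br* shared 1951 stretches, 96.8% of those of the former and 88.2% of the latter. Values of single genes with low shares are uncertain.

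The variant genes carried most of the histone reads. H3.3, which replaces H3 outside S phase, is encoded by *H3f3a* and *H3f3b* with the same protein sequence. *H3f3a* (chr1:180800832-180813943) had 475, 509.5 and 565 CPM in control and 539.5, 561, 515 and 523 CPM in Gata6STOP/+ pools. *H3f3b* (chr11:116021912-116027962) had 529, 503 and 551 CPM in control and 615, 471, 506 and 517 CPM in Gata6STOP/+ pools. The highest *H3f3b* level was that of Gata6STOP/+ replicate 1, and the lowest that of Gata6STOP/+ replicate 3. Over all pools the levels were 150.4 and 177 CPM per kilobase of exon. Their log2(fold changes) were 0.05 (95% interval −0.11 to 0.21) and −0.01 (−0.20 to 0.19).

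The H3.3 genes drew more reads than the 2 replication-dependent H3 genes in every pool, with summed levels, not divided by length, of 1004 to 1154 CPM against 2.14 to 3.48 CPM. The ratio of *H3f3a* to *H3f3b* was 0.899, 1.01 and 1.03 in control and 0.878, 1.19, 1.02 and 1.01 in Gata6STOP/+ pools, with no separation of the genotypes.

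H2A.Z, a variant found at promoters and regulatory elements, is encoded by *H2az1* and *H2az2*. *H2az1* (chr3:137864487-137866922) had 457, 439 and 516 CPM in control and 462, 457, 455 and 465 CPM in Gata6STOP/+ pools. The 4 Gata6STOP/+ values lay within the range of the 3 control values. *H2az2* (chr11:6427229-6444443) had 107, 93.6 and 113 CPM in control and 95.03, 96.8, 99.4 and 94.4 CPM in Gata6STOP/+ pools. Its log2(fold change) of −0.11 (s.e. 0.07) was the lowest of the variant genes, with an adjusted *P*-value of 0.738 in limma. The ratio of *H2az1* to *H2az2* ran from 4.29 to 4.92 over the pools.

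MacroH2A, a large H2A variant with an added macro domain that is associated with silent chromatin, is encoded by *Macroh2a1* and *Macroh2a2*. *Macroh2a1* (chr13:56073619-56136361) had 151, 140.2 and 153 CPM in control and 149, 142, 144 and 135 CPM in Gata6STOP/+ pools. *Macroh2a2* (chr10:61738665-61784147) had 84.3, 79.1 and 80.1 CPM in control and 76.7, 87.2, 79.0 and 81.7 CPM in Gata6STOP/+ pools. Both showed overlapping groups, with log2(fold changes) of −0.06 (95% interval −0.18 to 0.07) and 0.00 (−0.0021, interval −0.14 to 0.13).

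The variant linker histone *H1f0* (chr15:79028450-79030504), known to accumulate as cells leave the cycle, had 318, 262 and 285 CPM in control and 294, 267, 253 and 280.1 CPM in Gata6STOP/+ pools. *H1f10* (chr6:87980421-87981637) had 76.3, 54.3 and 63.4 CPM in control and 62.0, 54.6, 64.5 and 61.3 CPM in Gata6STOP/+ pools. The highest level of each was that of control replicate 3. Their log2(fold changes) were −0.07 (s.e. 0.08) and −0.08 (s.e. 0.10).

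*H2ax* (chr9:44334694-44336077), the H2A variant phosphorylated at DNA breaks, had 155, 133 and 147 CPM in control and 138, 135, 131 and 138 CPM in Gata6STOP/+ pools. Control replicate 4 lay within the Gata6STOP/+ range and the other control pools above it. The log2(fold change) was −0.10 (s.e. 0.06, 95% interval −0.24 to 0.04), with an adjusted *P*-value of 0.743 in limma.

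**Figure D4:**
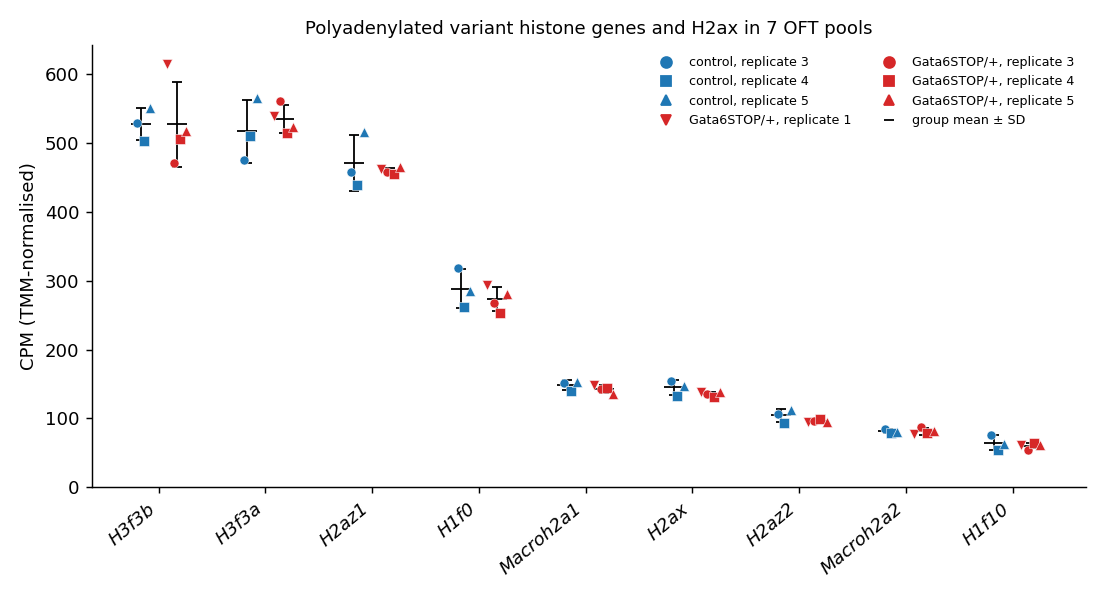
CPM of the 8 variant genes and *H2ax* in each of the 7 pools (blue, control; red, Gata6STOP/+), with black bars for the group mean and s.d. All 9 genes show overlapping groups, and *H3f3b* reaches 615 CPM in Gata6STOP/+ replicate 1 against 471 to 517 CPM in the other Gata6STOP/+ pools.

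The 95% intervals differed in width from gene to gene. Taken over the 8 variant genes, their outermost ends were −0.31 (*H1f10*) and 0.21 (*H3f3a*) on the log2 scale. Among the replication-dependent genes the widest were those of *H2ac12* and *H2ac13*, with outermost ends of −2.73 and 1.184.

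**Figure D5:**
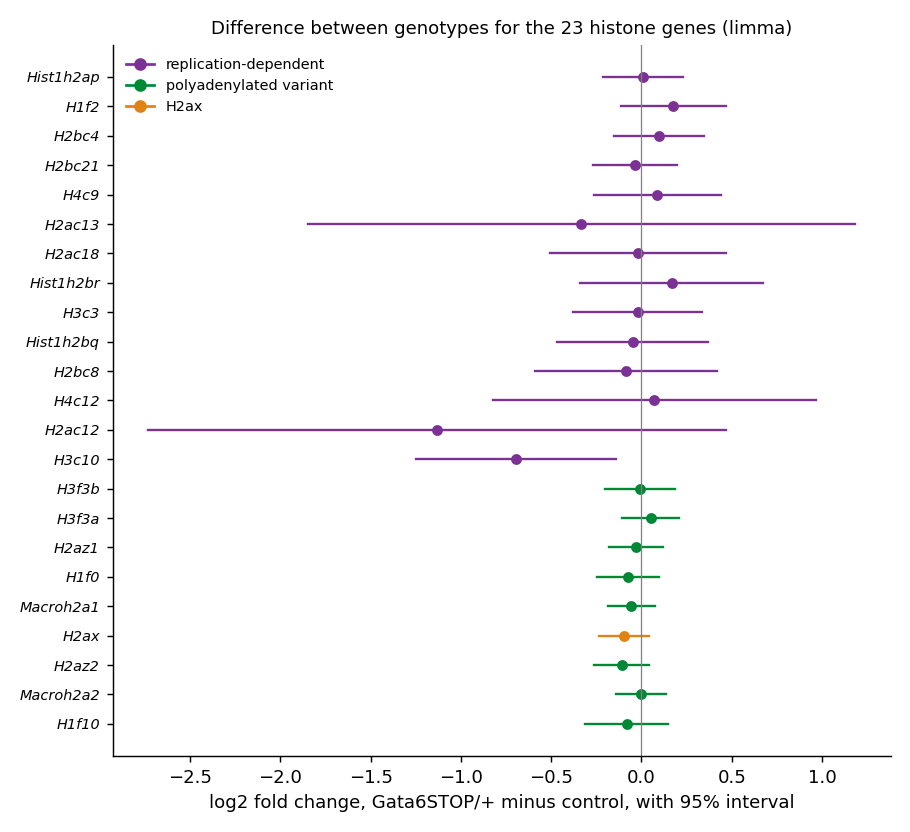
Difference in mean log2(CPM+0.5) between Gata6STOP/+ and control OFT for the 23 members, each with its 95% interval from limma, unadjusted for the number of genes. The interval of *H3c10* (−1.25 to −0.14) lies wholly below 0, and those of the other members include it.

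The machinery that makes and handles histones was then read from gene lists. Of 17 genes listed for histone mRNA 3′ end processing, 14 were in the table and 0 passed the adjusted threshold, with a median log2(fold change) of 0.00 (−0.0013). *Lsm10*, part of the U7 particle that cleaves histone mRNA, had the smallest *P*-value, with 12.6, 11.6 and 11.5 CPM in control and 9.54, 10.7, 10.9 and 9.07 CPM in Gata6STOP/+ pools. All 4 Gata6STOP/+ pools lay below the control pools, and the adjusted *P*-value was 0.595 in limma. Of the 14 genes, 7 had a higher and 7 a lower mean, and only *Lsm10* did not overlap, against 8.47% of all genes. *Srrt*, a partner of the cap-binding complex with the highest CPM of the list, had between 172 and 179.6 CPM. *Slbp*, outside the naming rule and chosen after its values were seen, had 66.7, 76.7 and 76.4 CPM in control and 75.2, 71.8, 71.4 and 69.7 CPM in Gata6STOP/+ pools.

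Of the chaperones that deliver histones to replicating DNA, 13 of 14 were in the table and 0 passed. Of the 13, 5 had a higher and 8 a lower mean in Gata6STOP/+ OFT, and 1 did not overlap, against 8.47% of all genes. *Ipo4*, an importin that carries H3 and H4, had 85.7, 84.7 and 80.7 CPM in control and 72.8, 78.4, 74.0 and 75.0 CPM in Gata6STOP/+ pools, with no overlap and an adjusted *P*-value of 0.513 in limma. *Rbbp7*, with the highest CPM, had 298 to 334 CPM.

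Of 14 chaperones and remodellers of variant histones, all in the table, 0 passed. Of these, 7 had a higher and 7 a lower mean in Gata6STOP/+ OFT, with a median log2(fold change) of 0.0036. *Dek* had 141, 160.4 and 155 CPM in control and 169.9, 184, 165 and 178 CPM in Gata6STOP/+ pools, a log2(fold change) of 0.20 (s.e. 0.06) with no overlap and an adjusted *P*-value of 0.444 in limma. Their sum was 1667, 1661 and 1649 CPM in control and 1689, 1698, 1692 and 1749 CPM in Gata6STOP/+ pools, so that every Gata6STOP/+ pool lay above every control pool, with means of 1659±9.32 and 1707±28.3 CPM. *Hjurp*, the chaperone of the centromeric H3 variant, stood highest in CPM, at 287 to 304. Of the general chaperones, 7 of 8 were in the table and 0 passed, 6 with a higher and 1 with a lower mean in Gata6STOP/+ OFT. Their sum also did not overlap, with 2132, 2276 and 2265 CPM in control and 2324.5, 2405, 2280.04 and 2385 CPM in Gata6STOP/+ pools. These were 2 of the 9 gene lists, and the sums of the other 7 overlapped. Gene by gene, 2 of the 14 variant chaperones and remodellers and 0 of the 7 general chaperones did not overlap, against 8.47% of all genes. *Nap1l1* had 393 to 446 CPM in control and 429.9 to 473 CPM in Gata6STOP/+ pools, and *Npm1* 627 to 762 and 719 to 796 CPM.

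The proliferation lists frame the replication-dependent genes. All 35 S-phase genes were in the table, 0 passed, and their summed level was 2753±75.1 CPM (*n*=3) in control and 2762±73.4 CPM (*n*=4) in Gata6STOP/+ OFT. *Ccne2*, a cyclin of S-phase entry, had the smallest *P*-value, with 33.6, 41.9 and 36.6 CPM in control and 46.8, 42.2, 46.9 and 48.2 CPM in Gata6STOP/+ pools, a log2(fold change) of 0.30 (s.e. 0.08) and an adjusted *P*-value of 0.354 in limma. The groups did not overlap, with 42.2 CPM as the lowest Gata6STOP/+ and 41.9 CPM as the highest control level. Of the 35 genes, 14 had a higher and 21 a lower mean in Gata6STOP/+ OFT. Besides *Ccne2*, 1 gene did not overlap, with the Gata6STOP/+ pools below, against 8.47% of all genes in either direction. *Rrm1*, with the highest CPM, had 227 to 272 CPM.

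All 20 mitosis genes were in the table and 0 passed, 9 with a higher and 11 with a lower mean in Gata6STOP/+ OFT. Their sum ranged from 2389 to 2694 CPM in control and from 2357 to 2739.8 CPM in Gata6STOP/+ pools, *Hmmr* having the smallest *P*-value (adjusted, 0.720 in limma) and *Top2a* the highest level, at 375 to 479 CPM. Of the 8 genes of cell cycle exit, all in the table, 0 passed, and *Cdkn1c* led in both respects, with 745, 985 and 729 CPM in control and 689, 852, 832 and 709 CPM in Gata6STOP/+ pools. Control replicate 4, lowest in both histone class sums, was the highest for *Cdkn1c*, and its part in the class sums was not tested.

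Of 10 other histone genes outside the definition, 4 were in the table (*Cenpa*, *H2aj*, *H2aw* and *H2bu2*) and 0 passed. *Cenpa*, the centromeric H3 variant, had 117, 108 and 114 CPM in control and 102, 127, 116 and 110.3 CPM in Gata6STOP/+ pools. *H2aj* had the smallest *P*-value, with 25.9, 19.7 and 21.1 CPM in control and 19.6, 20.9, 20.4 and 18.1 CPM in Gata6STOP/+ pools, and an adjusted *P*-value of 0.741 in limma.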

How the data were processed

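RNA-seq libraries of poly(A)+ RNA, stranded and read over 60 bases from 1 end, were made from 3 control and 4 Gata6STOP/+ OFT pools. The series text gives 4 pairs of OFT per pool and fewer Gata6STOP/+ pools than the sample labels, and all 7 labelled pools were used, grouped by their labels. The authors trimmed adapters with cutadapt, quantified genes with RSEM (assembly GRCm38), retained those reaching 1 CPM in 3 or more samples and deposited TMM-normalized CPM from edgeR. How RSEM's estimates became whole numbers is not given in the sources used here. No per-sample column was left unused (0).

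Every deposited CPM value was a whole multiple of 1 step in its pool (100% within 0.01), so reads were recovered. Genes were tested with limma 3.58.1 (trend) on log2(CPM+0.5), a scale that understates changes of low genes, two-sided, with Benjamini-Hochberg adjustment over 14732 genes and a threshold of 0.05. Single members were also tested with exact permutation over 35 partitions, whose smallest two-sided *P*-value is 0.0571. *P*-values measure the spread between these pools, and whether pools shared litters is not stated in the labels. Alternatives were constants of 0.1 and 2, a mean of at least 5 CPM, median-of-ratios factors, a replicate block, edgeR 4.0.16 and DESeq2 1.42.0 on the recovered reads, members with a mean of at least 1 CPM, leaving out each pool, and, added after the values were seen, the sum without *Hist1h2ap*. The fits were tested on simulated data with 200 changed genes. Of these, limma called 170, with 14 unchanged genes, and edgeR's quasi-likelihood test 171, with 15. The likelihood ratio test called 179, with 39 unchanged genes, and DESeq2 180, with 29. With the replicate block, limma called 157, with 25 unchanged genes, and the quasi-likelihood test 158, with 24. Deviations of same-numbered pools correlated at −0.0084, −0.12 and −0.0016, against −0.068 to 0.12 for control and Gata6STOP/+ pools of different numbers. With 3 and 4 pools this cannot exclude that the numbers mark pairs.

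Gene positions, transcripts and 60-base stretches (same strand) came from GENCODE M21, promoters from RefSeq (GRCm38.p6). Overlapping genes on the opposite strand are separated only if counting used the strand, which is not stated.

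Per-pool values were given for every variant gene, *H2ax*, the 8 replication-dependent genes with the highest mean CPM, those whose groups did not overlap, the 4 with the largest ratio of highest to lowest pool, *H2ac12* and *H3c10*, and *Gata6*; for each gene list, the gene with the smallest *P*-value and that with the highest mean were named. The members, lists and rules were chosen with earlier results of these data known.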

Additional observations from a re-analysis of the deposited data

Results flagged for a closer look

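In the 4 Gata6STOP/+ pools, a value was singled out where its gap to the next pool as a share of the range of the group exceeded Dixon's 95% limit. Of 78 quantities examined, 8 did so, where chance gives about 1 in 20, and the quantities are not independent. Groups of 3 pools were not examined.

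Gata6STOP/+ replicate 1 stood apart in 5 of them. It had the 1.68 CPM of *H2ac12* (the other 3 pools had 0), the lowest level of *H3c10*, at 0.281 CPM, the lowest sum of replication-dependent H2A genes, at 101 CPM, the lowest replication-dependent share of the variant sum, at 7.13%, and the highest sum of H3.3 genes, at 1154 CPM. Its *Hist1h2ap* level, 94.96 CPM, was the lowest of any pool. With *Hist1h2ap* left out, its replication-dependent sum of 68.5 CPM was the highest, against 52.7 to 67.7 CPM in the other pools. Without this pool, the log2(fold change) of *H3c10* was −0.52, in the same direction. The *Gata6* level of this pool (268 CPM) lay within the control range (257 to 315 CPM), whereas the other Gata6STOP/+ pools had 203 to 219 CPM.

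Gata6STOP/+ replicate 4 had the highest *Hjurp* level, at 302 CPM, and the lowest *Nap1l1* level, at 429.9 CPM. Gata6STOP/+ replicate 5 had the highest sum of variant chaperones and remodellers, at 1749 CPM.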

How the results depend on the processing

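Of the 23 histone genes, 0 were called under 15 of the 16 alternatives. The exception was edgeR's quasi-likelihood test with a replicate block, which called 1, *H2ac12* (adjusted *P*-value of 0.047, against 0.741 in limma). Its fitted log2(fold change) there was −8.77, against −1.13, and rests on 4 pools without a read. Over its other alternatives *H2ac12* ranged from −2.14 to −0.31, with adjusted *P*-values of 0.417 to 0.980. In a block, Gata6STOP/+ replicate 1 has no control of its number and does not inform the difference. Whether the numbers mark pairs is not stated in the labels, and same-numbered pools correlated no more than others. With the replicate block, 14 of all listed genes were called by limma and 13 by edgeR's quasi-likelihood test, against 0 without it, and the directions of *Macroh2a2* (0.024 in both tools), *Rbbp7* (0.013 in both) and *Top2a* (−0.016 in both) were reversed. The count over all listed genes was 88 with DESeq2, 105 with edgeR's likelihood ratio test, 1 with a constant of 0.1, and 0 to 13 when 1 pool was left out, the highest without control replicate 4 (with 2 without Gata6STOP/+ replicate 3 and 1 without Gata6STOP/+ replicate 1).

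For the class medians the yardstick was their s.d. over pools (0.097 for replication-dependent and 0.052 for variant genes, log2). For the class ratios it was the s.d. of the control sums over their mean (0.112 and 0.056). Leaving out 1 pool can hardly move a ratio that far, so staying below it shows little. Both class medians and both class ratios moved by less than these yardsticks under every alternative run. The direction of 3 of them turned nevertheless, namely that of the replication-dependent median (0.052 after a filter at a mean of 5 CPM and 0.068 without control replicate 3), of the replication-dependent ratio (0.960 without control replicate 4, against 1.02) and of the variant ratio (1.017 without control replicate 5, against 0.988). Of the 23 members, 9 kept their direction under every alternative and 14 did not, in 34 of 358 comparisons. With 1 pool left out, the log2(fold change) ran from −0.068 to 0.10 for *Hist1h2ap*, −0.020 to 0.17 for *H4c9*, −0.73 to 0.35 for *H2ac13*, −0.19 to 0.11 for *H2ac18*, −0.10 to 0.30 for *Hist1h2br*, −0.091 to 0.018 for *H3c3*, −0.14 to 0.069 for *Hist1h2bq*, −0.33 to 0.038 for *H2bc8*, −0.35 to 0.41 for *H4c12*, −0.083 to 0.044 for *H3f3b*, −0.0069 to 0.12 for *H3f3a*, −0.080 to 0.037 for *H2az1*, −0.037 to 0.0255 for *Macroh2a2* and −0.20 to 0.044 for *H1f10*. It also crossed 0 for *Srrt* (−0.0055 to 0.016), *Rbbp7* (−0.041 to 0.013), *Top2a* (−0.034 to 0.10), *Cenpa* (−0.048 to 0.057), *Cdkn1c* (−0.16 to 0.057) and *Slbp* (−0.088 to 0.012). *H3c10* ranged from −1.04 to −0.34 over its alternatives, with adjusted *P*-values of 0.234 to 0.804. The cause of these changes was not tested.

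The groups held 3 and 4 pools, and 10 of the 14 replication-dependent genes had a mean under 5 CPM. Capture by poly(A) tail, reads shared between near-identical genes and whole-number values of unstated origin limit what the single genes show.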
